A study of Drosophila melanogaster with 8 samples.

Results

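Ecdysone signalling was followed through 9 genes in ovary RNA of Drosophila melanogaster: the importer gene Oatp74D, the receptor genes EcR and usp, the coactivator gene tai, and the response and partner genes Eip74EF, Eip75B, Hr4, Hr39 and ftz-f1. The genes were taken by their FlyBase symbols, and all 9 were found among the 13776 genes of the deposited tables. Poly(A)+ RNA of whole ovaries, about 100 per library, came from females aged 0 to 4 days in 2 groups of 2 libraries. Control females came from the cross tj-Gal4 x #60000 (VDRC), and knockdown females from tj-Gal4 x HP1a RNAi. DamID libraries of the same study were not analysed here. Both groups therefore carry tj-Gal4, whose driver is active in somatic cells of the ovary, and germline RNA was measured together with that of the soma. The second parent differs between the groups, so the knockdown and the parental line cannot be told apart. The libraries of a group are labelled as biological replicates, and nothing says how the crosses were set up.

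20-Hydroxyecdysone is the moulting steroid of insects, and adult fly ovaries both make it and respond to it. It enters cells through the Oatp74D transporter and binds EcR, which acts as a heterodimer with Usp, the fly relative of vertebrate RXR. The bound receptor recruits the p160 coactivator Taiman and switches on early genes, among them Eip74EF and Eip75B, whose products control later genes. In the ovary the pathway is known for roles in germline stem cell maintenance, follicle formation, border cell migration and the passage of egg chambers through mid-oogenesis.

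The libraries held 18671653 to 38330979 estimated reads on genes. Of all genes, 8798 had enough reads to be tested, among them all 9 members. Levels are given as CPM (reads scaled by the library total and TMM), and a difference is a log2 fold change, knockdown minus control, with its standard error and a p-value of edgeR's quasi-likelihood test adjusted over all tested genes by the Benjamini-Hochberg method. An adjusted p under 0.05 was taken as a pass. The transcript of HP1a itself measured 253 (control 1), 229 (control 2), 224 (knockdown 1) and 236 CPM (knockdown 2), a log2 fold change of -0.06 (SE 0.11, adjusted p = 0.677). The labelled knockdown was therefore not seen at this transcript in whole-ovary RNA. Follicle cell markers were lower, from 962 and 650 CPM in sum in the controls to 165 and 182 CPM in the knockdown libraries. Of the 9 markers 8 passed as lower, and Fas3 (log2 fold change 0.23, adjusted p = 0.469) did not pass. The 18 germline markers, of which 3 passed as higher and 3 as lower, summed to 8826 and 9109 CPM against 8215 and 8796 CPM. Late eggshell genes, 18 in number, summed to 10508 (control 1), 37083 (control 2), 1375 (knockdown 1) and 9432 CPM (knockdown 2). Libraries of 1 group thus differed widely in these genes. All 18 had a negative log2 fold change, and 1 passed as lower, Vm26Ab. It was the highest of them in control 1, at 3456 and 6602 CPM in the controls against 131 and 753 CPM. The sums hide wider gaps within the groups. Cp16 was at 0.368 and 528 CPM in the controls against 0.871 and 268 CPM. Cp19 was at 4.42 and 1520 CPM against 2.71 and 885 CPM. Hemocyte markers stood at 198 and 248 CPM against 376 and 357 CPM in sum, with 2 of 7 tested genes passing as higher and He at 0 in every library. The largest part of these sums was crq, at 101 and 145 CPM against 238 and 249 CPM. Of the 7 genes 5 were positive and 2 negative, and srp went from 58.5 and 85.8 CPM to 29.0 and 46.4 CPM (log2 fold change -0.93, adjusted p = 0.0661). Muscle markers summed to 2174 and 981 CPM against 1061 and 869 CPM, and 1 of 9 passed, as lower. In bulk RNA, fewer cells of a type and less RNA per cell cannot be told apart.

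Of the 9 genes, 2 rose, 4 fell and 3 did not pass. The importer gene Oatp74D and the receptor gene EcR rose, and tai, Eip74EF, Eip75B and Hr4 fell. Across all tested genes 27.9% passed, 11.8% as higher and 16.1% as lower, and the members were chosen with results of these libraries known. The median log2 fold change of the 9 genes was 0.25, beside 0.02 for all tested genes. The groups did not overlap for any of the 9 genes, 5 of them higher and 4 lower in the knockdown libraries. That was so for 77.0% of all tested genes, so the absence of overlap says little about these 9.

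**Figure D1:**
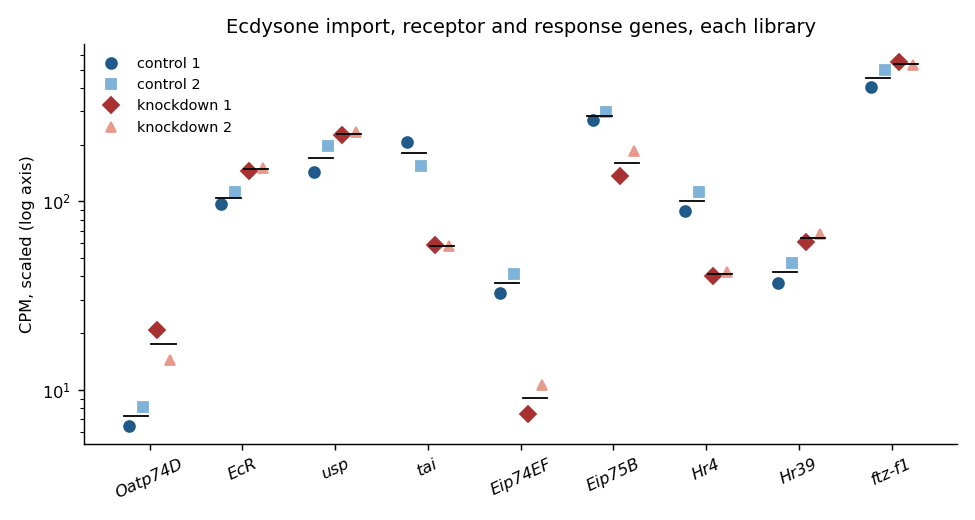
Scaled CPM (log axis) of the 9 genes in each of the 4 libraries; black bars are group means of 2 libraries. For tai, Eip74EF, Eip75B and Hr4 both knockdown libraries lie below both controls, and for the other 5 genes both lie above them, with the narrowest gap at ftz-f1 (498 CPM in control 2 and 526 CPM in knockdown 2).

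Oatp74D encodes the organic anion transporter that carries ecdysone into cells. It measured 6.47 (control 1), 8.14 (control 2), 20.8 (knockdown 1) and 14.4 CPM (knockdown 2). Both knockdown libraries were above both controls, with knockdown 1 the highest. It rose 2.40-fold (log2 fold change 1.27 with SE 0.28 and adjusted p = 0.0336). Its TPM was the lowest of the 9 genes in the controls, where it had 123 and 164 reads. It did not pass without control 1 (1.12, adjusted p = 0.0612), without knockdown 1 (0.98, adjusted p = 0.222) or without knockdown 2 (1.51, adjusted p = 0.0792). In those fits 1 group has a single library, which is assumed to vary like the other group. Markers of the fat body, a tissue outside the ovary, stood at 9.42 and 4.67 CPM in sum in the controls and at 35.2 and 9.60 CPM in the knockdown libraries. Of these 7 markers 2 were tested, and neither passed. These were apolpp, from 3.10 and 2.23 CPM to 20.2 and 5.74 CPM (adjusted p = 0.0550), and Miox, from 3.58 and 1.09 CPM to 14.3 and 3.34 CPM (adjusted p = 0.148). Other markers went down in reads. Fbp1 went from 18 and 6 to 0 and 0, Fbp2 from 14 and 3 to 0 and 1, and Lsp2 from 15 and 9 to 7 and 4. AkhR and Lip3 had 8 reads or fewer in every library. Whether other tissue in the dissections had a part in the rise of Oatp74D was not tested.

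Of the other 7 Oatp transporter genes, 4 were tested and 1 passed, as higher. Oatp30B, a transporter gene of the same family, measured 71.8 (control 1), 75.7 (control 2), 135 (knockdown 1) and 126 CPM (knockdown 2) (log2 fold change 0.83 with SE 0.11 and adjusted p = 0.0218). It did not pass without knockdown 1 (0.77, adjusted p = 0.108) or without knockdown 2 (0.88, adjusted p = 0.0703). Without control 1 the count of passing genes was 3. The 3 neighbouring genes Oatp58Da, Oatp58Db and Oatp58Dc had log2 fold changes of 2.06, 0.42 and 1.08 with adjusted p from 0.229 to 0.783. Their reads in control 2 were 0, 3 and 8, against 15, 34 and 68 in control 1. The controls thus differed more from each other in these genes than Oatp74D did between its controls.

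The receptor is made of EcR, which binds the hormone, and Usp. EcR measured 96.6 (control 1), 112 (control 2), 145 (knockdown 1) and 151 CPM (knockdown 2). The libraries of each group were close, and the groups did not overlap. EcR rose 1.42-fold (log2 fold change 0.50 with SE 0.12 and adjusted p = 0.0421). The pass was near the threshold and was lost without knockdown 1 (0.53, adjusted p = 0.209) and without knockdown 2 (0.47, adjusted p = 0.25). Of all tested genes, 28 were higher and 186 lower in the first of these fits and 85 and 257 in the second.

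The partner gene usp measured 143 (control 1), 196 (control 2), 224 (knockdown 1) and 233 CPM (knockdown 2). Control 1 was the lowest, and control 2 was nearer to the knockdown libraries than to control 1 on this scale. The log2 fold change was 0.43 (SE 0.18, adjusted p = 0.111), which did not pass. Without control 2 it was 0.70 and passed (adjusted p = 0.00519), while without control 1 it was 0.23 (adjusted p = 0.0931). It did not pass without knockdown 1 (0.46, adjusted p = 0.314) or knockdown 2 (0.40, adjusted p = 0.350). The gene overlaps Actn and CG4313 in the Release 6 gene table, and the strand of reads was not given in the sources used here. Actn had a mean of 4588 reads per library and a log2 fold change of 0.05 (adjusted p = 0.738).

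Within a library, the ratio of usp to EcR in deposited TPM, which is per length and does not depend on library scaling, was 2.44 (control 1), 2.80 (control 2), 2.45 (knockdown 1) and 2.42 (knockdown 2). The groups overlapped (two-sided exact permutation p = 0.667, where the smallest p that 2 against 2 libraries allow is 0.333). From counts per deposited length the ratio was 1.00 (control 1), 1.11 (control 2), 0.967 (knockdown 1) and 0.939 (knockdown 2). On that scale both knockdown ratios lay below both controls. Those lengths do not give the deposited TPM. The TPM sum over all transcripts is fixed, and its group difference had a median of 0.50 over all genes on the log2(TPM + 1) scale, so TPM is used here for ratios and order within a library.

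The gene of the coactivator, tai, was one of the 4 members that fell. It measured 207 (control 1), 154 (control 2), 58.8 (knockdown 1) and 57.9 CPM (knockdown 2). Both knockdown libraries were nearly equal and far below both controls. It fell 3.09-fold (log2 fold change -1.63 with SE 0.17 and adjusted p = 0.0217) and passed without each library in turn, at -1.81 to -1.39. The ratio of tai to EcR in TPM went from 1.02 and 0.634 in the controls to 0.185 and 0.174 in the knockdown libraries. The groups did not overlap (two-sided exact permutation p = 0.333, the smallest possible here). The ratio differed between the controls too, with control 1 the higher.

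**Figure D2:**
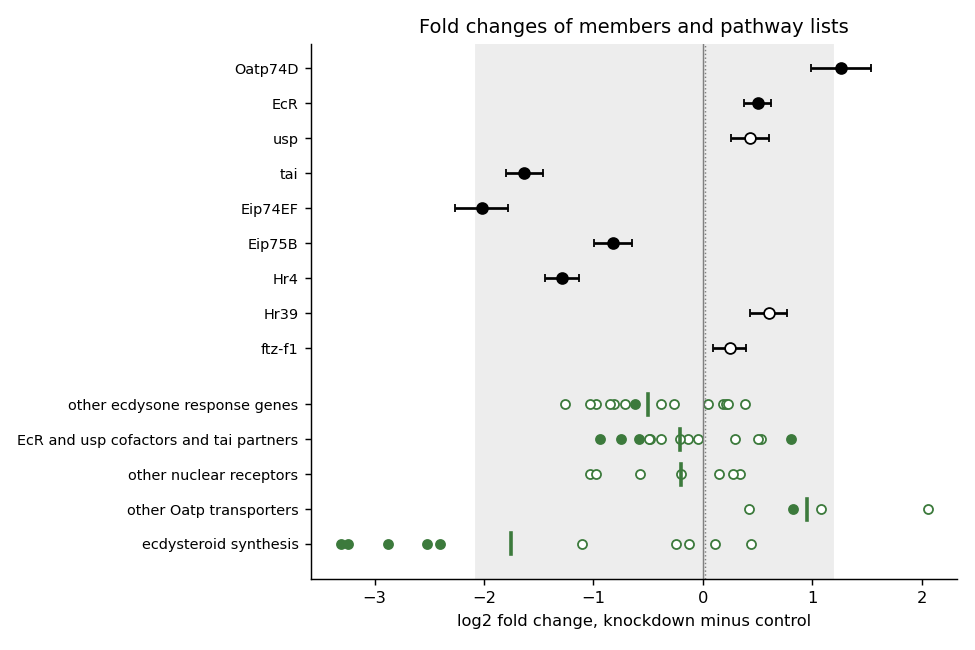
Log2 fold changes, knockdown minus control, of the 9 genes with SE bars (black) and of the tested genes of 5 pathway lists (green, with the list median as a bar); filled symbols passed an adjusted p of 0.05, and the grey band spans the 5th to 95th percentile of all tested genes. Of the members, Eip74EF and tai lie farthest below 0 and Oatp74D farthest above it.

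Eip74EF and Eip75B are the classic early puff genes of the hormone, coding for an ETS-domain factor and for heme-binding nuclear receptors. Eip74EF measured 32.6 (control 1), 41.3 (control 2), 7.45 (knockdown 1) and 10.7 CPM (knockdown 2). Every knockdown value lay below every control value. It fell 4.06-fold (log2 fold change -2.02 with SE 0.24 and adjusted p = 0.0217) and passed without each library in turn, at -2.31 to -1.79. The fall was the deepest among the 9 genes.

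Eip75B measured 271 (control 1), 297 (control 2), 137 (knockdown 1) and 185 CPM (knockdown 2). The controls were close, while knockdown 1 was clearly below knockdown 2. It fell 1.77-fold (log2 fold change -0.82 with SE 0.17 and adjusted p = 0.0320). It did not pass without knockdown 1 (-0.62, adjusted p = 0.169) or without knockdown 2 (-1.05, adjusted p = 0.0583).

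Hr4 codes for a nuclear receptor that acts in the early to late switch of the ecdysone cascade. It measured 88.8 (control 1), 112 (control 2), 40.2 (knockdown 1) and 42.2 CPM (knockdown 2). The knockdown libraries were nearly equal, and both were below both controls. It fell 2.44-fold (log2 fold change -1.28 with SE 0.15 and adjusted p = 0.0217). The pass was lost without knockdown 1 (-1.25, adjusted p = 0.0548). It was also lost with limma-trend on log2(TPM + 1) (-0.62, adjusted p = 0.0617), where the value relative to the median of all genes was -1.12. The gene overlaps PIG-K in the Release 6 gene table; PIG-K had a log2 fold change of -0.03 (adjusted p = 0.864).

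Hr39 and ftz-f1 code for the fly's related nuclear receptors of the vertebrate SF-1 and LRH-1 kind. Hr39 measured 37.0 (control 1), 47.3 (control 2), 60.7 (knockdown 1) and 67.2 CPM (knockdown 2). Control 1 was the lowest, and the groups did not overlap. The log2 fold change was 0.60 (SE 0.17) and missed the threshold narrowly (adjusted p = 0.0514). It passed without control 2 (0.81, adjusted p = 0.00703) and with the DESeq2 Wald test (0.60, adjusted p = 0.0160). It did not pass without control 1 (0.44, adjusted p = 0.0513), knockdown 1 (0.67, adjusted p = 0.169) or knockdown 2 (0.53, adjusted p = 0.267).

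ftz-f1, the competence factor that prepares tissues for a following hormone pulse, had the highest mean TPM of the 9 genes. It measured 406 (control 1), 498 (control 2), 547 (knockdown 1) and 526 CPM (knockdown 2). Control 2 came close to the knockdown libraries. The log2 fold change was 0.25 (SE 0.15, adjusted p = 0.247), which did not pass. Without control 2 it was 0.42 (adjusted p = 0.0229), and without control 1 it was 0.11 (adjusted p = 0.385).

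The ratio of Hr39 to ftz-f1 in TPM was 0.140 (control 1), 0.154 (control 2), 0.188 (knockdown 1) and 0.222 (knockdown 2). Both knockdown ratios were above both control ratios (two-sided exact permutation p = 0.333, the smallest possible here). ftz-f1 remained the more abundant of the pair in every library.

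The order of levels per length was read from the deposited TPM and depends on the lengths used. By counts per deposited length, usp stood below EcR in both knockdown libraries (usp to EcR 0.967 and 0.939). In the controls ftz-f1 (82.4 TPM, SD 13.6, n = 2), usp (70.7, SD 17.4) and Eip75B (63.8, SD 3.43) led, and the values of neighbours among these 3 overlapped. EcR (26.8 TPM, SD 4.05) and tai (21.7, SD 4.02) followed and overlapped each other. Hr39 (12.2 TPM, SD 2.79) and Hr4 (10.7, SD 2.04) overlapped as well, and Eip74EF (6.35, SD 1.1) and Oatp74D (1.97, SD 0.382) came last without overlap.

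In the knockdown libraries ftz-f1 (144 TPM, SD 9.09) and usp (138, SD 0.191) again led. EcR (56.5 TPM, SD 0.567) stood above Eip75B (44.8, SD 8.19), and Hr39 (29.5, SD 1.58) stood above tai (10.1, SD 0.335), so both pairs changed order. Oatp74D (6.86 TPM, SD 2.03) overlapped Hr4 (6.58, SD 0.0186), and Eip74EF (2.26, SD 0.512) was last. Every member but Oatp74D was separate from the next lower one in these libraries, most narrowly ftz-f1 from usp.

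**Figure D3:**
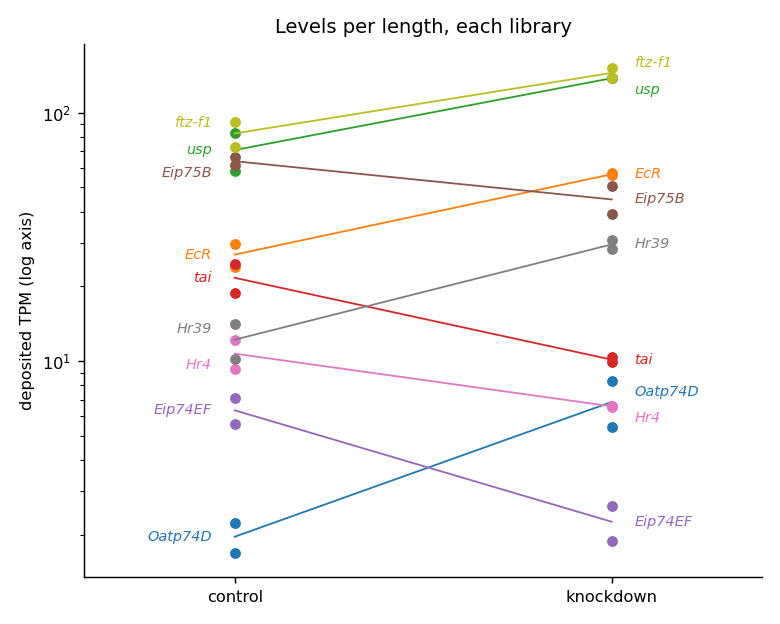
Deposited TPM (log axis) of the 9 genes; points are libraries and lines join the group means. EcR crosses Eip75B, Hr39 crosses tai and Oatp74D rises from the lowest place past Eip74EF, while ftz-f1 and usp stay highest in both groups; on this scale the median of all genes is itself shifted upward, so slopes are not fold changes of the test.

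The files give 1 value per gene, so transcripts of a gene were not separated. Reads and TPM together imply a mean effective length of the transcripts in use, which differs between libraries when their mix differs. Eip75B, whose promoters give several receptor isoforms, had implied lengths of 4114 (control 1), 4314 (control 2), 4883 (knockdown 1) and 4906 nt (knockdown 2). The knockdown libraries were nearly equal and 16.2% above the control mean. Of 5049 tested genes whose deposited length differed between libraries, 96.5% had a smaller shift in size. Hr39 had implied lengths of 3372 (control 1), 3201 (control 2), 2976 (knockdown 1) and 2945 nt (knockdown 2). That was a decrease (-9.93%), larger than for 94.2% of those genes.

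The shift in implied length was smaller in the other 7 genes, at most -3.70% in Hr4. EcR went from 3758 and 3635 nt to 3587 and 3566 nt, Hr4 from 8926 and 8830 nt to 8506 and 8594 nt, and ftz-f1 from 5199 and 5201 nt to 5048 and 5114 nt. The groups did not overlap in implied length for 6 of the 9 genes, beside 59.2% of those 5049 genes. They overlapped for tai, Eip74EF and Oatp74D. The deposited lengths differed from this. For tai they were 1701 (control 1), 1918 (control 2), 2049 (knockdown 1) and 2314 nt (knockdown 2), without overlap of the groups. In the same order they were 1355, 1386, 1390 and 1432 nt for Eip75B and 1637, 1641, 1271 and 1229 nt for Hr39. Whether the length of tai shifted thus depends on which length is used. With an offset for implied length, chosen after seeing the data, the log2 fold change was -1.05 (adjusted p = 0.0236) for Eip75B and 0.74 (adjusted p = 0.0423) for Hr39, which then passed. Which transcripts changed was not analysed here.

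**Figure D4:**
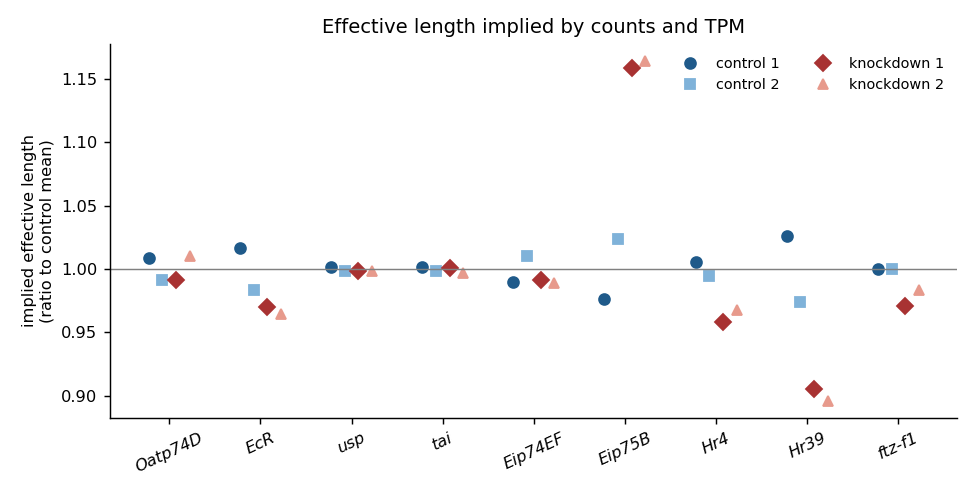
Effective length implied by deposited reads and TPM, as a ratio to the control mean, for each of the 4 libraries. Eip75B lies above 1 and Hr39 below 1 in both knockdown libraries, and usp and tai stay close to 1 in all libraries. Deposited lengths are not shown, and those of tai were longer in both knockdown libraries than in both controls.

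Other genes known as ecdysone responsive were lower in the median without many passing singly. Of 18 found in the files, 14 were tested; in edgeR's test 0 passed as higher and 1 as lower (0 and 5 at an unadjusted p under 0.05, which 4236 of all 8798 tested genes had), with a median log2 fold change of -0.50 and 9 of 14 negative. The share that passed was below that of all tested genes (27.9%). The balance turned with the method, as it did over all genes. DESeq2 called 0 higher and 5 lower, beside 1591 and 1724 of all 8798 tested genes. Library size alone called 2 higher and 0 lower, beside 2576 and 1040. With limma-trend on log2(TPM + 1) it was 3 higher and 0 lower, beside 4406 and 664. The passing gene was Eip93F, a factor of the adult stage, which measured 48.3 (control 1), 51.0 (control 2), 31.7 (knockdown 1) and 33.1 CPM (knockdown 2) (log2 fold change -0.62 with SE 0.13 and adjusted p = 0.0306). It did not pass without knockdown 1 (-0.59, adjusted p = 0.211) or without knockdown 2 (-0.65, adjusted p = 0.189). It also did not pass with library size alone as the scale (-0.38, adjusted p = 0.0636). Among the others, Cyp18a1, which codes for an enzyme that inactivates ecdysteroids, had -1.26 (adjusted p = 0.0581), Kr-h1 had -0.85 (adjusted p = 0.0677) and Cth had -0.38 (adjusted p = 0.0612). Cyp18a1 differed between libraries of 1 group, at 36.3 and 64.5 CPM in the controls and 15.5 and 26.4 CPM under knockdown. The number passing as lower was 4 without control 2, 2 without control 1, 1 without knockdown 2 and 0 without knockdown 1. The genes ImpE1, ImpE2 and ImpL1, with DopEcR, had 8 reads or fewer in every library and were not tested.

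Cofactors of the receptor and partners of Taiman were tested next. Of 13 genes, 1 rose and 3 fell, near the shares of all tested genes (11.8% higher and 16.1% lower), with a median log2 fold change of -0.21. The counts were 4 higher and 0 lower with library size alone, 5 and 0 with limma-trend on log2(TPM + 1), and 3 and 6 with DESeq2. Over all 8798 tested genes the same fits called 2576 higher and 1040 lower, 4406 and 664, and 1591 and 1724. The nuclear receptor cofactor gene rig rose, from 88.8 and 118 CPM in the controls to 169 and 193 CPM (log2 fold change 0.81 with SE 0.17 and adjusted p = 0.0326). Both juvenile hormone receptor genes, whose products bind Taiman, fell. Met went from 93.4 and 94.0 CPM to 67.1 and 58.1 CPM (log2 fold change -0.58 with SE 0.12 and adjusted p = 0.0328), and gce from 63.4 and 45.2 CPM to 31.0 and 25.8 CPM (log2 fold change -0.94 with SE 0.21 and adjusted p = 0.0361). The chaperone gene Hsc70-4 fell as well (log2 fold change -0.75, adjusted p = 0.0399). None of these 4 passed without knockdown 1 or without knockdown 2, where adjusted p ran from 0.101 to 0.357. With library size alone Met, gce and Hsc70-4 did not pass either, and on log2(TPM + 1) Met was at 0.0093, beside a median over all genes of 0.50. Without control 2, 4 genes of the list passed as higher and 6 as lower.

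None of the other nuclear receptor genes passed in edgeR's quasi-likelihood test, with 1 of 7 at an unadjusted p under 0.05 beside 4236 of all 8798 tested genes. DESeq2 called 0 as well. Library size alone called 3 as higher, a fit in which 2576 of the 8798 genes were called higher. With limma-trend on log2(TPM + 1) 4 were called higher, a fit in which 4406 of the 8798 genes were called higher. Of 15, 7 were tested, with a median log2 fold change of -0.20, and 8 had too few reads, at most 18 in a library. The 4 with the smallest adjusted p were Hr96 (0.34, adjusted p = 0.0835), Hr3 (-1.03, adjusted p = 0.139), ERR (0.27, adjusted p = 0.148) and Hr78 (-0.20, adjusted p = 0.189). Hr3, an early-late receptor gene of the same cascade, went from 20.5 and 29.2 CPM in the controls to 6.78 and 17.3 CPM under knockdown. Knockdown 1 was far below knockdown 2. Without control 2, 2 genes passed as higher, and without knockdown 2, 1 as lower. The sign for Hr78 turned with library size alone (0.036).

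Of the steroid synthesis genes 10 were tested, of which 5 fell and 0 rose (5 and 1 at an unadjusted p under 0.05, 5 and 0 with DESeq2), with a median log2 fold change of -1.75. Across all 8798 tested genes 16.1% passed as lower and 11.8% as higher, and 4236 had an unadjusted p under 0.05. DESeq2 called 1724 of all tested genes lower and 1591 higher. The cytochrome P450 genes sad (-2.52, adjusted p = 0.0217), dib (-3.31, adjusted p = 0.0219) and Cyp6t3 (-2.87, adjusted p = 0.0330) and the dehydrogenase gene sro (-3.24, adjusted p = 0.0270) had the smallest adjusted p, and spo (-2.41, adjusted p = 0.0413) was the fifth. dib had 65 and 61 reads in the controls and 6 and 14 under knockdown, and Cyp6t3 had 63 and 31 against 5 and 16. sad passed without each library in turn. The count that fell was 1 without knockdown 1, 3 without knockdown 2 and 3 without control 1. The hormone itself was not measured.

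The genes with the nearest profiles over the 4 libraries were sought by Euclidean distance of centred log2 CPM among 7562 genes with a mean of at least 50 reads. Nearest to EcR were BEAF-32 (distance 0.016) and CG41099 (0.017), and nearest to tai were Polr3G (0.034) and bou (0.074). For Eip74EF they were RhoGEF64C (0.071) and CG33995 (0.23), and for Eip75B Pat1 (0.069) and the mitochondrial transcript mt:ND4 (0.095). Hr4 had CG32694 (0.12) and CG5002 (0.14), and Oatp74D had CG32638 (0.12) and Dlip3 (0.13). No member was among the nearest 2 of another. A profile over 4 libraries is a description, and many genes share the same 4 libraries' differences.

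Libraries of 1 group differed among themselves, and the members did not all shift the same way. Between the controls, where late eggshell genes stood at 10508 and 37083 CPM in sum, tai was lower in control 2 by a log2 difference of -0.43, and the other 8 genes were higher there by 0.14 (Eip75B) to 0.46 (usp). Between the knockdown libraries, where eggshell genes stood at 1375 and 9432 CPM, Eip74EF (0.51) and Eip75B (0.43) were higher in knockdown 2 and Oatp74D was lower (-0.53). The other 6 genes differed there by a log2 difference of -0.06 to 0.15. The part of late egg chambers, and of the lower follicle cell markers, in the fall of tai, Eip74EF, Eip75B, Hr4 and the steroid synthesis genes was not tested.

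**Figure D5:**
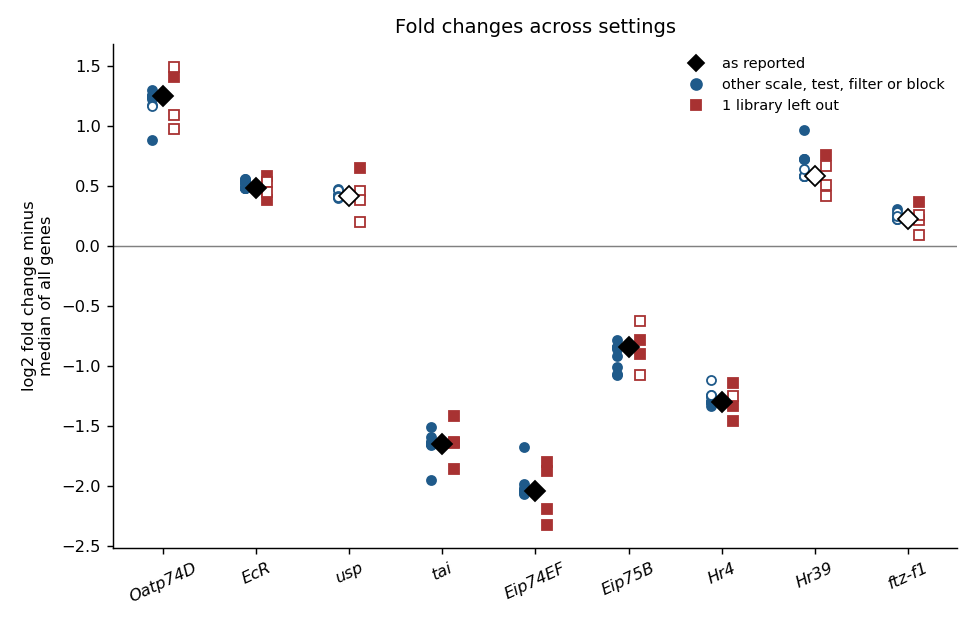
Log2 fold change of the 9 genes minus the median of all tested genes under each setting; filled symbols passed an adjusted p of 0.05. All values of a gene stay on 1 side of 0, and tai and Eip74EF pass under every setting shown.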

How the data were processed

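Libraries of poly(A)+ RNA were read from 1 end for 50 nt, per the labels' protocols. The authors' deposited gene tables give expected counts (estimated reads per gene), TPM and gene lengths in nt per library. The submitters' processing notes name Salmon, HISAT2, DESeq2 and HTSeq and the builds dm3 and BDGP5, without roles or versions. Of 13776 gene IDs, all 9 members matched a symbol. Lists were matched by symbol or synonym, and br and phm, among others, found no match.

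Expected counts were rounded to whole numbers and tested in R 4.3.3 with edgeR 4.0.16 (filterByExpr, TMM, quasi-likelihood F test, no block, Benjamini-Hochberg over 8798 genes). Residual degrees of freedom were 2, and the biological coefficient of variation was 0.245. SEs were derived from the log2 fold change and its F statistic. P-values measure the spread between these samples only. The edgeR fit was tested on simulated counts in which 200 genes were changed by a known fold.

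The deposited lengths do not give the deposited TPM for genes with several lengths. Counts divided by TPM were therefore scaled by the constant that genes of a single whole-number length share (2721 to 2855 genes, 98.9% to 99.0% within 0.1% of it). The length this implies was 2.0 times the deposited effective length in the median of other genes.

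Alternatives were other scales, no filter, length offsets, limma 3.58.1 on TPM, DESeq2 1.42.0, a replicate block and leaving out each library. Members and lists were chosen with earlier results of these data known. All members are named, with the 4 smallest adjusted p of each list and the 2 nearest profiles of each passing member. A gene named outside this rule was picked with its values known. The HP1 domain list was not used here, because its positions are of dm3 and the gene table at hand is of Release 6. Sequences were not analysed here.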

Additional observations from a re-analysis of the deposited data

How the results depend on the processing

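The sign of each member's log2 fold change held under every alternative, and tai and Eip74EF passed under all of them. Leaving out a library, the members passing as higher numbered 0 to 5 and as lower 2 to 4, against 2 and 4 with all libraries; over the 5 pathway lists they numbered 0 to 9 and 1 to 15, against 2 and 9. With library size alone, which shifts the median of all genes to 0.25, 4 members were higher, and the lists gave 11 higher and 5 lower. On limma-trend with log2(TPM + 1) and log2(TPM + 0.1), with medians of 0.50 and 0.56, 5 members were higher, and the lists gave 17 and 5 under both. With germline scaling (median 0.10) the lists gave 6 higher, and with the DESeq2 Wald test 4 higher and 16 lower. The share of calls that were higher was 42.4% as reported, 71.2% with library size alone, 57.2% with germline scaling and 86.9% with log2(TPM + 1). With the replicate number as a block, 4 members and 6 list genes were higher, and usp (0.45, adjusted p = 0.0445) and Hr39 (0.61, adjusted p = 0.0152) then passed. In the list of other ecdysone response genes 5 were lower in that fit. Among these 5 were Cyp18a1 (-1.26, adjusted p = 0.00261), Kr-h1 (-0.80, adjusted p = 0.0362) and Hr3 (-1.16, adjusted p = 0.0126). Libraries of 1 number deviated together (r = 0.55 across genes), but with 2 pairs the numbers are not taken as pairing.

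Signs turned for genes that are no members. On log2(TPM + 1) and log2(TPM + 0.1), Cth was at 0.152 and 0.153, Hr78 at 0.316 and 0.320, Met at 0.0093 and 0.0095 and the HP1a transcript at 0.459 and 0.460. With library size alone Hr78 was at 0.036 and the HP1a transcript at 0.170. Without 1 library in turn the HP1a transcript ran from -0.120 to 0.018 and Oatp58Db from -0.464 to 3.07, and the HP1a transcript was at 0.011 with germline scaling. Relative to the median of all genes in the same fit, Cth, Hr78, Met and the HP1a transcript were negative in each of these settings. On log2(TPM + 1) these relative values were -0.35, -0.19, -0.49 and -0.04. For Oatp58Db the relative value was -0.51 without control 2 and 3.05 without control 1. The cause of the turned signs was not tested. Hr39 passed under 8 alternatives that kept all libraries, and Oatp74D did not pass with the deposited effective lengths as an offset (1.19, adjusted p = 0.0547). With counts per deposited length in place of TPM, the mean usp to EcR ratio was 1.05 for controls and 0.953 for knockdown. Depth limits genes of few reads, such as Oatp58Db with 3 reads in control 2.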
